A study of Mus musculus with 120 samples.

Results

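UDP-glucuronosyltransferases of the Ugt2 and Ugt3 families were followed across the livers of 30 mouse strains. The members were 10 genes of 18193 with a probe set of their own, chosen by symbol, namely Ugt3a1 and Ugt3a2 on chromosome 15, and Ugt2a3, Ugt2b1, Ugt2b5, Ugt2b34, Ugt2b35, Ugt2b36, Ugt2b37 and Ugt2b38 on chromosome 5. Every probe set that carried a member's symbol alone was taken, which gave 12 probe sets of 45037 on the array, of 34945 with a single gene symbol, and of 19429 that passed a filter on low values. All 12 passed that filter. Ugt3a1 and Ugt2b34 had 2 probe sets each, and the one with the lower mean is called the second probe set.

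UDP-glucuronosyltransferases are membrane enzymes of the endoplasmic reticulum that join a sugar, usually glucuronic acid, from a UDP-sugar donor to a lipophilic molecule. The water-soluble conjugate then leaves the cell in bile or blood. In liver the Ugt2 enzymes are known for conjugating steroid hormones, bile acids and drugs, whereas the Ugt3 enzymes are known, from human work, for using donors other than UDP-glucuronic acid.

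The study measured liver RNA of male mice aged 10 weeks after a 4 h fast on short-oligonucleotide arrays, with 2 males per strain and 2 arrays per male (60 males, 120 arrays). The strains were MSM, an inbred strain of Japanese wild mouse origin, 28 consomic strains and the control C57BL/6J, called B6. Each consomic strain had the B6 background with 1 MSM chromosome, the centromeric (C) or telomeric (T) portion of one, or the MSM mitochondrial DNA. A strain is named here by what it carried, so that Chr15 is the strain with MSM chromosome 15, Chr5 the strain with MSM chromosome 5, and mt the strain with MSM mitochondria. The question put to the family was whether its RNA levels in MSM liver also appeared in the strain that carried the genes' own MSM chromosome, and whether any other MSM chromosome moved them.

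Values are deposited log2 signals per probe set, averaged over the 2 arrays of a male. As read from the values, deviations within a probe set were compressed to a degree that differs between probe sets, so a difference is no log2 fold change and sizes cannot be set against each other between genes. Differences are therefore also given in residual SD, the spread between males of a strain for that probe set, pooled over all 30 strains. This residual SD lay between 3.76e-05 for Ugt2b36 and 0.119 for Ugt2b38. Every comparison used the same 2 B6 males, so the comparisons are not independent of each other.

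The hepatocyte genes Alb (log2 signal 14.80) and Apoa1 (14.73) were near the top of all tested genes. The kidney genes Umod (6.73) and Slc12a1 (6.88) lay below every tested gene. Of the other kidney and gut markers, Vil1 (7.04) and Slc34a1 (7.30) were low, but Fabp2 was at 9.52, with 84.4% of tested genes below it. The exocrine pancreas genes Cpa1 and Ctrb1 were at 7.195 and 7.598, and 17.2% of tested genes lay below Ctrb1. Measured as the root mean square deviation from the all-male mean over tested probe sets, male 1 of Chr9 stood apart at 1.91. The MSM males were at 1.83 and 1.74, and the other 57 males lay between 0.700 and 1.39. Results on Chr9 are given with and without this male. In a whole liver, fewer cells of a type and less RNA per cell cannot be told apart. In strains that carry a member gene from MSM, a level difference and a sequence difference under the probes cannot be told apart either, since the probes' own sequences were not used here. Several members are close copies of each other, and hybridisation of one copy's RNA to another's probes was not tested.

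The sequence just upstream of 5 Ugt2b genes is shown, because these are the members that share letters there and they include Ugt2b35, Ugt2b37 and Ugt2b38, whose values in the carriers of MSM chromosome 5 are given further on. The 110 bases before the annotated start are printed 5′ to 3′ from RefSeq on GRCm38.p6, which is B6 sequence. Capitals mark the run GTTATANTTTAAC (N is any base).
Ugt2b38, chr5:87424204-87424313, minus strand: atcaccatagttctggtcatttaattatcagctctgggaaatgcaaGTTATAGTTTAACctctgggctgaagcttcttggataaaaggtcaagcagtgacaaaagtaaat
Ugt2b37, chr5:87254789-87254898, minus strand: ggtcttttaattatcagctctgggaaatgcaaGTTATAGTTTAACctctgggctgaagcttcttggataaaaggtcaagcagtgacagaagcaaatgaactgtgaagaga
Ugt2b5, chr5:87140341-87140450, minus strand: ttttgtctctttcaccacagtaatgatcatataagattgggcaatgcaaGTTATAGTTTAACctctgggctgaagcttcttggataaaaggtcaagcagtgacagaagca
Ugt2b36, chr5:87092556-87092665, minus strand: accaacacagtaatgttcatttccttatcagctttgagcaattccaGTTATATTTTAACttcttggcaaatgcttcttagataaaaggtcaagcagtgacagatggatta
Ugt2b35, chr5:87000750-87000859, plus strand: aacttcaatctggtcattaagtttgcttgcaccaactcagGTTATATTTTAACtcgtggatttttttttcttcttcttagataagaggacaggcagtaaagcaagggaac

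A promoter entry was found for 9 of the 10 genes, all but Ugt3a2. Over the 250 bases upstream of the start and on both strands, the capitalised run occurred in these 5 member promoters and in 6 of 32851 mouse promoters in all (0.0183%). It began 61 to 78 bases before the start. A 22-base run, GATAAAAGGTCAAGCAGTGACA, occurred in Ugt2b36, Ugt2b5, Ugt2b37 and Ugt2b38 and in no other of the 32851 promoters. Both runs were chosen after the sequences were seen. AGGTCA, the core motif of nuclear receptor sites, occurred in the same 5 member promoters against 14.02% of all promoters, and in 4 of them it lies inside the 22-base run. The consensus of the liver factor HNF1, GTTAATNATTAAC, had no exact match in the 9 promoters and 3 matches in all promoters. TATAAA was found in Ugt3a1 alone of the 9, against 12.37% of all promoters. These matches are descriptions of the B6 letters, and the MSM letters were not used here. Aligned over 250 upstream bases, Ugt2b37 and Ugt2b38 had 85.2% identical positions, Ugt2b5 and Ugt2b38 81.5%, and Ugt2b5 and Ugt2b37 73.0%. Every other pair among the 9 lay between 45.7% and 60.4%.

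Levels of the 12 probe sets spanned the array's scale. Averaged over 60 males, Ugt2b36 was at 13.18, Ugt2b5 at 12.25, Ugt2b1 at 12.23, Ugt2b34 at 11.63 and Ugt2a3 at 10.998, with 95.0% to 99.5% of tested genes at lower values. Ugt2b35 was at 10.78, with 94.2% of tested genes below it. Ugt3a1 (8.95) and Ugt3a2 (8.94) lay higher than most, with 74.5% and 74.3% of tested genes below them. Ugt2b37 (7.53) and Ugt2b38 (7.48) sat near the bottom, with 10.9% and 6.34% below them. Signals of different probe sets also depend on the probes, so these positions are places on the array's scale and not ratios of RNA between genes.

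Ugt3a2, whose human counterpart transfers glucose and xylose, was the member with the widest separation. The MSM males read 8.027 and 8.029, the Chr15 males 8.036 and 8.063, and the B6 males 9.044 and 9.019. All 4 males with MSM chromosome 15 lay below all other 56 males, whose lowest value was 8.805 in a Chr9 male. The difference from B6 was -1.004 ± 0.039 in MSM and -0.982 ± 0.039 in Chr15 (log2 signal, SE, n = 2 males each), or -25.7 and -25.1 residual SD. Chr15 thus held 97.8% of the MSM difference. A separation of these 4 males from all others on the low side was seen in 0.293% of tested probe sets. MSM and Chr15 did not overlap each other, yet their means lay only 0.022 apart, which is 0.552 residual SD. Above these came Chr9 (mean 8.900), Chr7 (8.931) and Chr19 (8.976). The other 25 strains, B6 included, had means up to 9.038 in Chr7T. B6 stood at place 26 from the lowest of 30, and its males overlapped those of the next strain in the order.

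Ugt3a1, whose human counterpart transfers N-acetylglucosamine, lay below B6 in the same strains on both of its probe sets. The first read 8.94494 and 8.94464 in MSM males, 8.94542 and 8.94534 in Chr15 males, and 8.94991 and 8.95002 in B6 males. Those differences from B6 were -4.45 residual SD in MSM and -3.95 in Chr15, a share of 88.7%. The carriers lay below 55 of the other 56 males, and the exception was male 1 of Chr9 at 8.94390. The second probe set read 8.8912 and 8.8896 in MSM males, 8.8952 and 8.8948 in Chr15 males, and 8.9077 and 8.9058 in B6 males. It gave -7.33 residual SD in MSM and -5.28 in Chr15, a share of 72.0%, and again 55 of 56 other males lay above the carriers. With the arrays scaled to equal quantiles the first probe set was -0.184 residual SD in MSM and -2.72 in Chr15, while the second stayed at -6.06 and -5.07.

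**Figure D1:**
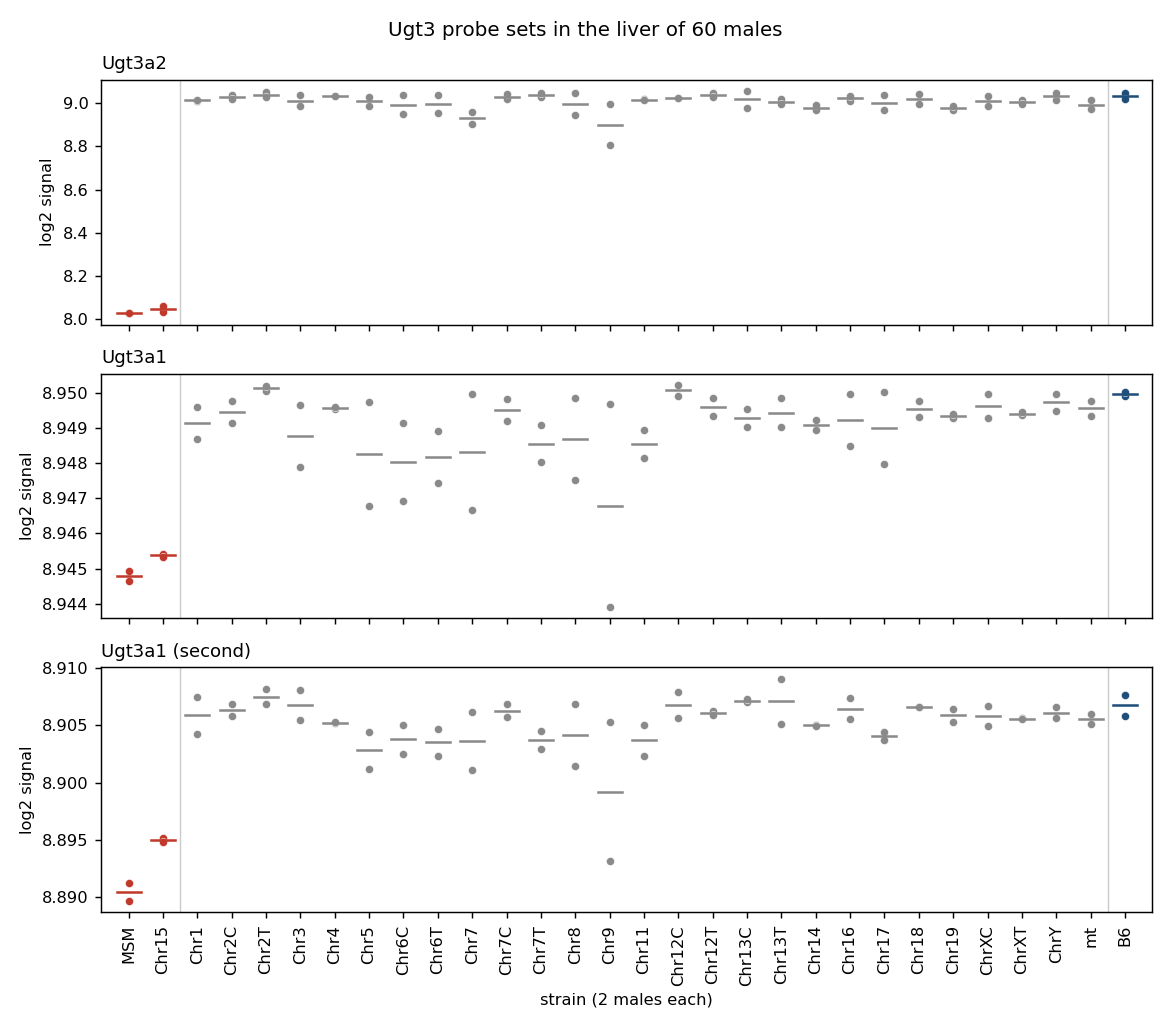
Log2 signal of Ugt3a2 and of both Ugt3a1 probe sets (vertical axes, each with its own scale) in every male by strain; points are males, bars are strain means, red marks the strains with MSM chromosome 15 and blue marks B6. The 4 red Ugt3a2 points lie between 8.027 and 8.063, below all other males, and a single Chr9 male reaches the level of the carriers for Ugt3a1.

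The Ugt2 genes on chromosome 5 did not share one direction in the strains that carry them from MSM. Ugt2b38 read 7.086 and 7.094 in MSM males, 7.084 and 7.093 in Chr5 males, and 7.536 and 7.454 in B6 males. The 4 carriers of MSM chromosome 5 lay within 0.0101 of each other and below all other 56 males, which spread from 7.163 in a Chr7T male to 7.787 in a Chr15 male. Such a separation on the low side was found in 0.252% of tested probe sets. The difference from B6 was -0.41 ± 0.118 in both MSM and Chr5 (SE, n = 2 males each), or -3.41 and -3.42 residual SD. The 2 strains overlapped each other and came lowest in the order, followed by Chr6T (7.362), Chr8 (7.367) and Chr7T (7.375). The spread between males of other strains was wide: the residual SD of 0.119 was 6.36 times the SD between the 2 arrays of a male (0.0187), the highest such ratio among the 12. Males of Chr7T differed by 0.425, and the median gap between the 2 males of a strain was 0.106. At the carriers' level, 20.0% of all probe sets with a single symbol read lower, so 7.09 lies near the bottom of the array's range, and no share of the MSM difference is given. No detection call was used.

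Ugt2b35 differed from B6 in the opposite direction. It read 10.822 and 10.822 in MSM males, 10.805 and 10.797 in Chr5 males, and 10.786 and 10.787 in B6 males. The 4 carriers lay above all other 56 males, the highest of which was a Chr7C male at 10.796. The lowest carrier lay only 0.00079 above that male, less than the SD between the 2 arrays of a male (0.0027). A separation on the high side was found in 0.226% of tested probe sets. Against B6 the difference was 0.0355 ± 0.0053 in MSM and 0.0144 ± 0.0053 in Chr5, or 6.66 and 2.70 residual SD, so Chr5 held 40.6% of the MSM difference. The 2 strains did not overlap, and Chr5 minus MSM was -3.96 residual SD. At the other end of the order stood Chr9 (10.770), Chr8 (10.773) and Chr7T (10.775).

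Ugt2b37 was higher in the carriers but not set apart from every other male. It read 7.5350 and 7.5340 in MSM males, 7.5348 and 7.5351 in Chr5 males, and 7.5295 and 7.5295 in B6 males. The carriers lay above 53 of the other 56 males. The highest male of all came from Chr4 at 7.5357, and its strain mate read 7.5293. The difference was 3.09 residual SD in MSM and 3.33 in Chr5, a share of 108%. Ugt2b37 and Ugt2b38, the pair whose upstream sequences are most alike, thus stood on opposite sides of B6 in both strains.

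**Figure D2:**
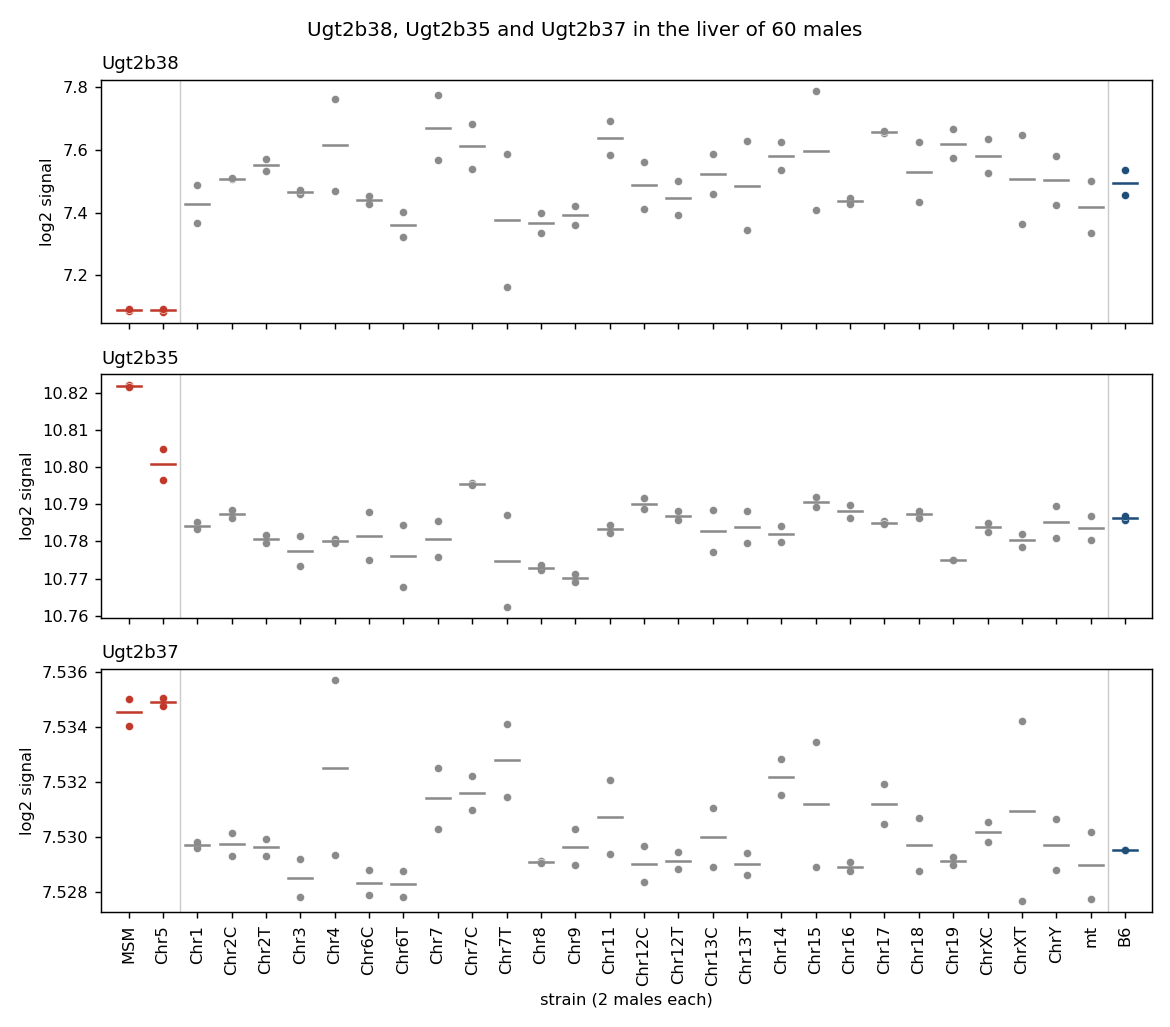
Log2 signal of Ugt2b38, Ugt2b35 and Ugt2b37 (vertical axes, each with its own scale) in every male by strain; points are males, bars are strain means, red marks the strains with MSM chromosome 5 and blue marks B6. The red points are lowest for Ugt2b38 (7.084 to 7.094), highest for Ugt2b35 (10.797 to 10.822), and high but overlapped by Chr4 and 2 other males for Ugt2b37.

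The remaining Ugt2 probe sets differed between MSM and Chr5. Ugt2b34 read 11.633895 and 11.633891 in MSM males, 11.633370 and 11.633336 in Chr5 males, and 11.633975 and 11.633992 in B6 males. The Chr5 males had places 2 and 3 from the lowest of 60, whereas the MSM males stood in the middle. In residual SD this was -0.643 in MSM and -4.47 in Chr5, and the second probe set gave 0.363 and -3.31. The small MSM value of the first probe set changed sign when arrays were scaled to equal quantiles (0.982), and also against the mean of the other strains (0.545).

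Ugt2b1, whose rat counterpart conjugates bisphenol A, read 12.2304 and 12.2302 in MSM males, 12.2275 and 12.2230 in Chr5 males, and 12.2277 and 12.2286 in B6 males. The MSM males were the highest 2 of 60, and the Chr5 males differed from each other by far more than the B6 males did. In residual SD the difference was 1.44 in MSM and -1.96 in Chr5. Ugt2b36 gave 1.76 in MSM and -0.444 in Chr5, and Ugt2b5 gave 2.22 and -1.02. For both genes the 2 MSM males were again the highest of 60, while male 2 of Chr5 was among the lowest 8 and male 1 of Chr5 lay above both B6 males. With the arrays scaled to equal quantiles these 2 probe sets took equal values in MSM and B6, so that setting gives no direction for them. Ugt2a3, whose human counterpart conjugates bile acids, gave -1.20 in MSM and 1.65 in Chr5, and its MSM value changed sign under equal quantiles (6.26).

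**Figure D3:**
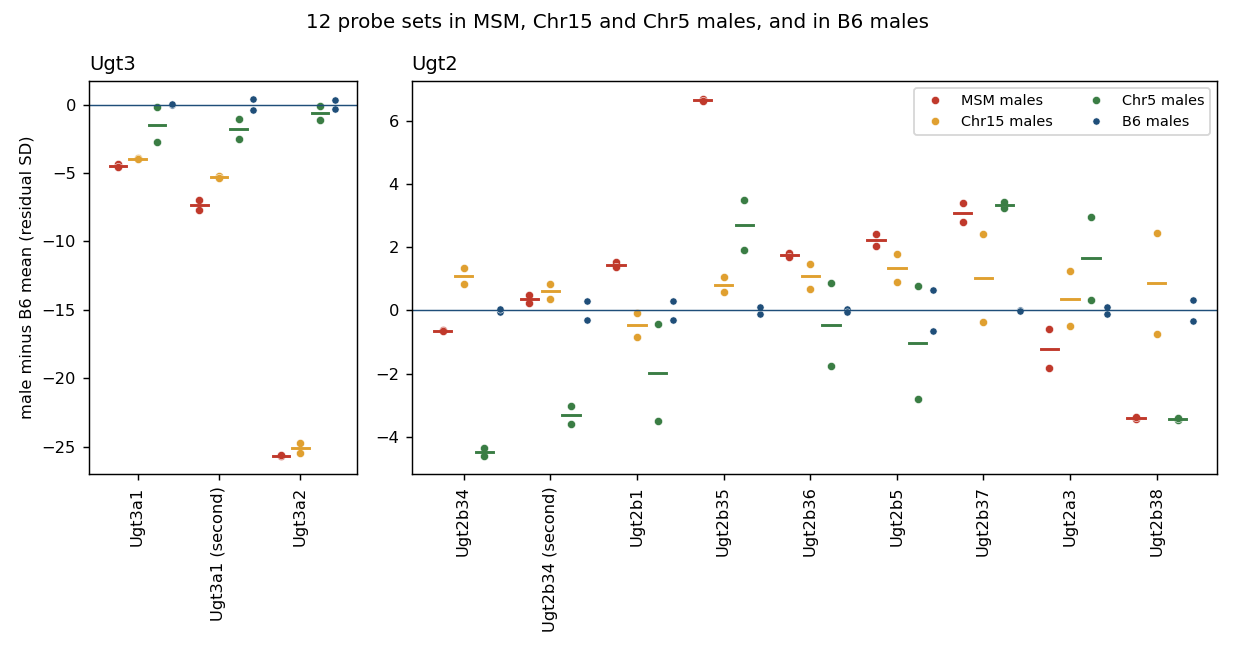
Difference of each male from the B6 mean in residual SD (vertical axes, separate scales for Ugt3 and Ugt2) for the 12 probe sets; points are males and bars are strain means of MSM, Chr15 and Chr5, with the B6 males at the right of each probe set. The Ugt3a2 points of MSM and Chr15 lie between -25.7 and -24.8, Ugt2b35 and Ugt2b37 lie above B6 in MSM and Chr5, and Ugt2b38 lies below it.

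Members passing the limma test, with Benjamini-Hochberg adjustment over all 19429 probe sets and an adjusted p under 0.05, are given as a description, since the genes were chosen with these contrasts known. In MSM 2 probe sets passed as higher (Ugt2b35 and Ugt2b37) and 4 as lower (Ugt3a2, both of Ugt3a1, and Ugt2b38), where 23.4% of all probe sets passed, 13.4% as higher and 9.95% as lower. In Chr15 none passed as higher and 2 as lower (Ugt3a2 and the second of Ugt3a1), where 0.304% of all probe sets passed, 0.0824% as higher and 0.221% as lower. In Chr5 none passed as higher and 1 as lower (Ugt2b34), where 0.906% of all passed, 0.458% as higher and 0.448% as lower. With the arrays scaled to equal quantiles 0 members passed in Chr5, where 0.314% of all probe sets did. The Ugt2b34 call was lost in every fit that left out a Chr5 or a B6 male, and the Ugt3a1 call in Chr15 was lost without either Chr15 male or without B6 male 1. Both males lay above both B6 males for 5 members in MSM, 5 in Chr15 and 3 in Chr5, against 45.3%, 22.8% and 25.2% of all probe sets. Both lay below for 6, 3 and 6, against 29%, 22.5% and 26.2%.

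In the 26 strains that carry neither MSM chromosome 5 nor MSM chromosome 15, no member probe set passed the test. These 312 comparisons gave 0 calls higher and 0 lower (limma, adjusted p under 0.05), where 0.346% of the same comparisons over all probe sets passed, 0.15% as higher and 0.197% as lower. At an unadjusted p under 0.05 there were 0 higher and 22 lower, spread over 10 strains, against 3.89% and 4.04% of the same comparisons over all probe sets. The sign was negative in 227 comparisons and positive in 85, against 49.3% negative over all probe sets. All of these comparisons share the 2 B6 males. A moderated F test over the 26 contrasts called 0 of the 12, against 5.66% of all probe sets, with adjusted p between 0.158 for Ugt2b35 and 0.974 for Ugt2a3 (limma). At an unadjusted p under 0.05 the F test held 3 members, Ugt2b35, Ugt2b34 and Ugt2b5, against 17.8% of all probe sets. The most frequent gene among the 22 was Ugt2b34, with both probe sets lower at that level in Chr6C, Chr6T, Chr8 and Chr9, the first alone in Chr3 and Chr17, and the second alone in Chr14. The lowest of these strain means was that of Chr6T at 11.633514, against 11.633983 in B6, with an adjusted p of 0.234 (limma).

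Chr9 had the lowest adjusted p of the 26 strains, and 11 of its 12 member probe sets were negative against B6, where 49.9% of all probe sets were. At an unadjusted p under 0.05 there were 8 lower and 0 higher, against 7.25% and 10.9% of all probe sets. Ugt2b36 read 13.176739 and 13.176814 in Chr9 males, against 13.176921 and 13.176917 in B6 males, with an adjusted p of 0.0538 (limma). Male 1 of Chr9 was the lowest of 60, and male 2 stood in place 3, just above a Chr6T male. Ugt2b5 read 12.25299 and 12.25333 in Chr9 males, against 12.25344 and 12.25356 in B6 males, with an adjusted p of 0.0757 (limma). For Ugt3a2 the Chr9 males read 8.805 and 8.995, against 9.044 and 9.019 in B6 males, with an adjusted p of 0.0867 (limma). The median of the 12 in Chr9 was -2.87 residual SD, against 0.0047 over all tested probe sets. With the arrays scaled to equal quantiles, Ugt2b36 took equal values in Chr9 and B6, so that setting gives no direction for it. Ugt2a3 changed sign there, from -1.21 to 2.73 residual SD. Ugt2b5 and Ugt3a2 stayed lower, at -4.01 and -3.35.

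For several members the difference was far larger in male 1, the animal that stood apart. The Ugt3a1 difference from B6 was -5.22 residual SD in male 1 and -0.253 in male 2, and for Ugt3a2 the differences were -5.80 and -0.942. For Ugt2b35 and Ugt2b34 both males were low, at -3.25 and -2.82 residual SD for Ugt2b35 and at -2.58 and -3.41 for Ugt2b34. Without male 1 no member of Chr9 passed (lowest adjusted p = 0.729, limma), and without male 2 there were 7 calls, all lower. In that fit 5.91% of all probe sets were called lower in Chr9, against 0.376% with both males. For marker lists the lower of the 2 males is given first, whichever male it was. In Chr9 the 10 tested Kupffer cell and macrophage markers had list means of 1.18 and 3.64 residual SD. In the B6 males these were -0.0186 and 0.0186. The 11 tested hepatocyte markers had means of -1.01 in the lower and 0.173 in the higher male, against -0.134 and 0.134 in B6 males. None of these markers passed the limma test in Chr9, where 1.01% of all probe sets did. At an unadjusted p under 0.05, 7 of the 10 Kupffer cell and macrophage markers, 3 of 6 stellate cell, 2 of 7 endothelium and 1 of 2 lymphocyte markers were higher and none of them lower, and 1 of the 11 hepatocyte markers was lower. The stellate cell list had means of -0.267 residual SD in the lower and 3.31 in the higher male, against -0.198 and 0.198 in B6 males. Their part in the result was not tested.

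Outside Chr9 the lowest adjusted p was 0.169 (limma), for Ugt3a2 in Chr7. The Chr7 males read 8.959 and 8.903, against 9.044 and 9.019 in B6 males, with no overlap. Male 2 of Chr7 was the animal at 1.39 in root mean square deviation. In Chr7C and Chr7T, which carry portions of the same MSM chromosome, the Ugt3a2 means were 9.030 and 9.038, against 9.032 in B6. In Chr7T the 2 males went different ways: Ugt2b1 read 12.2205 and 12.2280 there, against 12.2277 and 12.2286 in B6 males, and Ugt2b35 read 10.762 and 10.787, against 10.786 and 10.787. Male 1 of Chr7T was the lowest of all 60 for both genes and male 2 was within the range of the other strains. Without male 2 of Chr7T the difference from B6 was -0.00762 for Ugt2b1 and -0.0238 for Ugt2b35, which rests on 1 Chr7T male. Chr7C was the strain with the most members above B6, with both males above both B6 males for 6 of the 12, against 24.4% of all probe sets, and none of them passed the test.

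**Figure D4:**
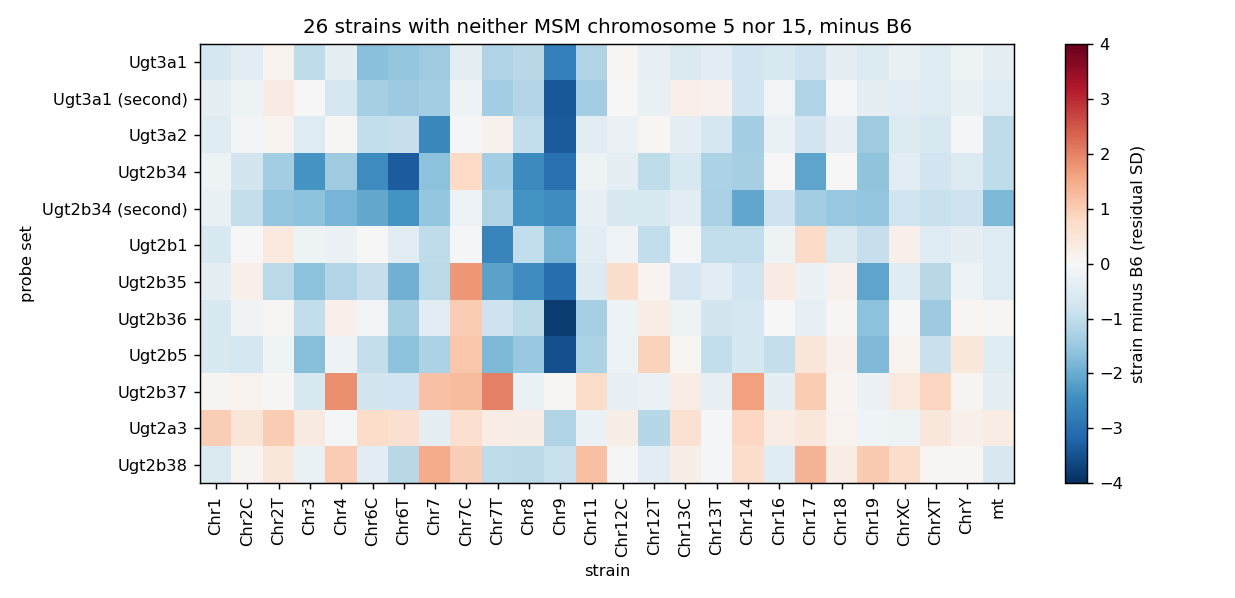
Difference of strain means from the B6 mean in residual SD (colour, blue lower and red higher than B6) for 12 probe sets (rows) in the 26 strains with neither MSM chromosome 5 nor 15 (columns). Every column shares the 2 B6 males, 227 of 312 cells are negative, and the Chr9 column is negative in 11 of 12 cells.

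Many member pairs varied together among males of the same strain, on the same chromosome and across both. Over the deviations of 60 males from their strain means, the 2 probe sets of Ugt3a1 had a Pearson r of 0.90 and those of Ugt2b34 one of 0.86, which describes how far 2 probe sets of a gene repeat each other. Ugt3a1 and Ugt3a2 had an r of 0.76, which was 0.60 without Chr9. Ugt2b36 and Ugt2b5 had an r of 0.71, Ugt2b34 and Ugt2b35 one of 0.72, and Ugt2b37 and Ugt2b38 one of 0.63. Pairs on different chromosomes reached like values: Ugt3a1 and Ugt2b5 had an r of 0.72 (0.63 without Chr9), and Ugt3a2 and Ugt2b34 one of 0.42 (0.63 without Chr9). Across strains, Ugt2b37 and Ugt2b38 had an r of -0.30 over 30 strain means. Over the 27 strains without MSM, Chr5 and Chr15 it was 0.50. Other pairs changed sign in the same way, such as Ugt2b35 and Ugt2b38 (-0.45 and 0.33) and Ugt3a2 and Ugt2b36 (-0.42 and 0.70). Ugt2a3 had an r of -0.50 against the second Ugt2b34 probe set, 0.50 against Ugt2b5 and 0.67 against the second Ugt3a1 probe set, the last being 0.53 without Chr9. All probe sets of a male share its arrays and their scaling, so these r values are descriptions only.

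**Figure D5:**
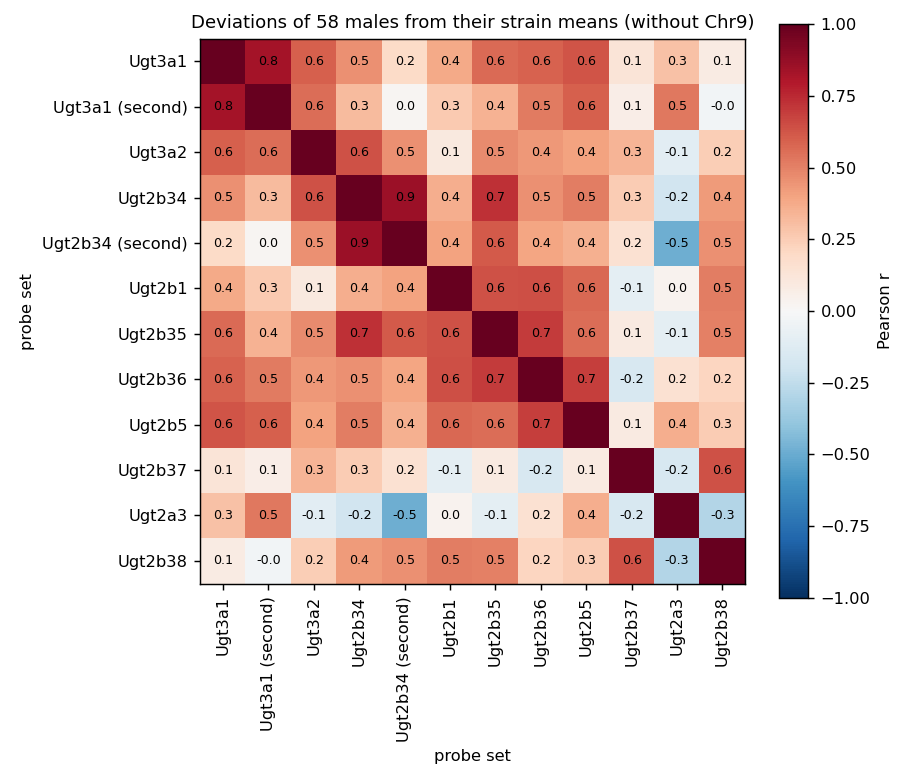
Pearson r (colour and printed value) between the 12 probe sets over the deviations of 58 males from their strain means, Chr9 left out. The highest values are those of 2 probe sets of the same gene, Ugt2b37 pairs with Ugt2b38, Ugt2a3 is near or below 0 with most Ugt2b genes, and Ugt3a1 and Ugt2b5, on different chromosomes, reach 0.63.

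Genes whose 30 strain means were most like those of Ugt3a2, among 11939 other tested genes, all lay on chromosome 15. Cyp2d26, a cytochrome P450 gene, had an r of 0.99, followed by Tspo, a mitochondrial outer membrane protein, with 0.93, Ank, a pyrophosphate transport protein, with 0.91, Ift27 with 0.90 and Gm17753 with 0.90. These values rest on MSM and Chr15. Over the 27 strains without MSM, Chr5 and Chr15, r was 0.63 for Cyp2d26, -0.37 for Tspo, 0.18 for Ank, -0.39 for Ift27 and 0.41 for Gm17753. For Ugt2b35 the most alike were Art3 (0.81), Mtmr10 (0.81), Vps33a (0.80), the urate transporter Slc2a9 (0.80) and Wdr86 (0.79), of which all but Mtmr10 on chromosome 7 lie on chromosome 5. Over the 27 strains these had r between 0.20 and 0.56.

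Of the 10 tested genes nearest to the Ugt2 cluster, 5 on each side in the reference order, 1 passed the test in Chr5, where 7.84% of tested probe sets on chromosome 5 did. That gene was Uba6, a ubiquitin-activating enzyme, higher by 5.08 residual SD in Chr5 and by 3.93 in MSM. The sulfotransferase genes Sult1b1 and Sult1d1, the nearest tested genes on the other side, were at 0.929 and -1.79 residual SD in Chr5. Of the 10 nearest to the Ugt3 pair, 2 passed in Chr15, where 5.95% of tested probe sets on chromosome 15 did. Both were lower, Agxt2, an aminotransferase of glyoxylate, by -5.70 residual SD and Amacr, a racemase of bile acid synthesis, by -5.24. In MSM they were at -5.34 and -3.78.

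The wider conjugation pathway was read from lists of other genes. For each list, the share to set beside the MSM counts is 13.4% of all probe sets passing as higher and 9.95% as lower. Of 7 genes listed for donor supply, for the Slc35 carrier family or for reversal of the reaction, 1 passed as higher and 3 as lower in MSM. None of the 7 passed in Chr15, Chr5 or Chr9. Ugp2, which makes UDP-glucose, was at -5.08 residual SD in MSM, the UDP-sugar carriers Slc35d2 and Slc35d1 at -3.99 and -2.81, and Gusb, which removes glucuronic acid, at 3.85. Ugdh, which oxidises UDP-glucose to the donor and lies on chromosome 5, was at 1.19 and did not pass. Of 7 tested transporters of conjugates, 1 passed as higher (Abcg2, 2.68) and 1 as lower (Slco2b1, -2.81) in MSM. Of 17 tested regulators, 3 passed as higher in MSM, namely Nr1i2, the pregnane X receptor, at 10.4, Ahr at 3.03 and Cebpb at 2.69. None of these transporters or regulators passed in Chr15, Chr5 or Chr9 (limma). In Chr9, at an unadjusted p under 0.05, 3 transporters and 3 regulators were lower and none higher. Over all probe sets 7.25% were lower and 10.9% higher at that level. The median over the 7 genes of the donor supply, carrier and reversal list in MSM was -0.232 residual SD. It was -0.524 over the transporters and 0.0486 over the regulators, against 0.526 over all tested probe sets. The Ugt1a genes, Ugt2a1, Ugt2a2 and Ugt8a were on the list of other conjugating enzymes and none was tested.

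Markers of liver cell types were read from lists as well. In MSM, 13.4% of all probe sets passed as higher and 9.95% as lower. Of 10 tested Kupffer cell and macrophage markers, 4 passed as lower in MSM (Csf1r, Lyz2, Clec4f and Vsig4) and none as higher, with a median of -2.22 residual SD. Means over that list lay between -2.53 and -2.37 in the MSM males, against -0.0186 and 0.0186 in the B6 males. Of 11 tested hepatocyte markers, 1 passed as lower (Fgb, -7.69). Of 7 endothelium markers, 1 passed as higher (Lyve1, 3.94) and 1 as lower (Clec4g, -3.46). Of 6 tested stellate cell markers, 1 passed as lower (Lrat, -4.30), and of 2 tested cholangiocyte markers, 1 as higher (Epcam, 3.99). The part of these markers in the member differences was not tested. In Chr15 and Chr5 none of 40 tested marker genes passed (limma). At an unadjusted p under 0.05, 0 of the 40 differed in Chr15, and 5 were higher and 1 lower in Chr5. The median of the Kupffer cell and macrophage list was 1.79 residual SD in Chr5.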

How the data were processed

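The authors deposited log2 signals per probe set of an Affymetrix mouse genome array. Summary method, normalization and log base were not given in the sources used here. Base 2 was inferred, since values ran between 6.34 and 14.82. RNA was labelled with biotin per the labels' protocols. Each animal number in the sample labels was treated as 1 male, an assumption, and the 2 arrays of a male were averaged. Genes were named through the platform annotation: 34945 of 45037 probe sets carried 1 symbol, 932 carried several and 9160 none, and 34741 matched a RefSeq gene (GRCm38.p6) by gene ID. Testing needed 2 or more of the 60 males above 7.42, the median over the whole table, and kept 19429 probe sets of 11949 genes. limma 3.58.1 in R 4.3.3 was used with a strain-means model of the 30 strains together (30 residual degrees of freedom). Each strain was set against B6, with Benjamini-Hochberg adjustment within a contrast and calls at an adjusted p under 0.05. The p-values measure only the spread between these males, and the number of arrays limits the precision. Procedures were tested on simulated data. Members and gene lists were chosen with earlier results of these data known. Every member and probe set was named; as most alike genes, the 5 of highest correlation to the Ugt3 and the Ugt2 gene with the largest between-strain variance ratio; and up to 4 called genes per list. Alternatives were no filter, equal quantiles, 1 probe set per gene, 120 arrays with the male as a random block, 2 strains alone, another reference mean, a trended robust prior, and leaving out each male. Promoters came from a RefSeq table of GRCm38.p6, and alignments used Biopython 1.88.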

Additional observations from a re-analysis of the deposited data

How the results depend on the processing

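The MSM and own-chromosome differences of Ugt3a2 and Ugt2b38 kept their direction in every alternative run, and the share of the MSM difference stayed between 96.5% and 101.2% for Ugt3a2. The count of member calls lower in the 26 other strains was 0; it was 1 with 1 probe set per gene, 8 with 120 arrays and the male as a random block, 4 against the mean of strains without the same MSM chromosome, where 0.187%, 0.516% and 0.381% of all comparisons passed as lower, and 0 to 7 when a male was left out. It was 7 without male 2 of Chr9 (0.434% of all comparisons), 3 without male 2 of Chr7T, 2 without either Chr5 male, and 1 without a male of Chr6C, Chr6T or Chr7 or without male 1 of Chr7T. These calls lay in Chr9, except Ugt2b1 and Ugt2b35 in Chr7T. In Chr9 alone, 1.72% of all probe sets passed as lower with 120 arrays and 1.7% against the other mean. The F test called 0 members in the main fit and 8 with 120 arrays, where 21.9% of all probe sets passed. Taken over the 12 probe sets in each of MSM, Chr15 and Chr5, both males lay beyond both B6 males in 28 cases, and in 18 under equal quantiles. As deposited, 45.3%, 22.8% and 25.2% of all probe sets lay above in these strains, and 29%, 22.5% and 26.2% below. The shares under equal quantiles are not given here, so nothing about the members is read from the change to 18. Equal quantiles moved the median probe set in MSM to 5.90 residual SD above B6, against 0.526 as deposited, and the cause was not tested. Fitted on 2 strains alone, 0 members passed in Chr15, 0 in Chr5 and 6 in MSM, where 0%, 0.00515% and 12.1% of all probe sets did; against the other reference mean it was 3, 4 and 9, where 1.04%, 1.38% and 41.7% did. Under equal quantiles 2 members passed in Chr15, 0 in Chr5 and 6 in MSM, where 0.221%, 0.314% and 84.7% of all probe sets did. In MSM the first Ugt3a1 probe set dropped out there and Ugt2b1 came in as higher. With 120 arrays the counts were 3, 5 and 6, where 0.535%, 2.96% and 26.1% did. The F test was not run on 2 strains alone or against the other mean, nor the count beyond B6 against that mean. No paired analysis was possible because the males of different strains carry different animal numbers.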
